A study of Mus musculus with 4 samples.

Results

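Nodal signalling genes were followed in mouse embryonic stem (ES) cells depleted of Tex10. The set was chosen by name and, like the gene lists below, with earlier results of these data known. It comprised the ligand genes Nodal and Gdf3, the antagonist genes Lefty1 and Lefty2, the co-receptor gene Tdgf1, the receptor gene Acvr2b, the signal transducer genes Smad2 and Smad3, and the feedback genes Smad7 and Skil. These were 10 of the 22739 named genes in the deposited tables, and each had a single row. RNA was read from CCE cells, a 129SV ES cell line grown on gelatin with 15% serum and leukemia inhibitory factor, which carried short hairpin RNAs against Tex10 (shTex10, 2 libraries) or, as controls, against luciferase (shLuci, 2 libraries). Poly(A)-selected RNA was sequenced as 100-bp single reads, and values were deposited as FPKM, a fragment density scaled by transcript length and by the mapped fragments of the library. The labels give neither the time from hairpin delivery to harvest nor the number of hairpins per target, and effects of a hairpin other than through its target were not separated.

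Nodal is a secreted protein of the TGF-beta family that binds activin receptors together with the co-receptor Cripto, the product of Tdgf1, and leads to phosphorylation of SMAD2 and SMAD3. The phosphorylated SMADs enter the nucleus with SMAD4 and, at many genes, with FOXH1. Lefty1 and Lefty2 are secreted antagonists whose genes are themselves targets of the pathway, so that signalling induces its own inhibitors. In ES cells the pathway is active at rest, and Lefty1, Lefty2 and Smad7 are known target genes of SMAD2 and SMAD3.

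Tex10 transcript stood at 11.6 and 13.4 FPKM in the shTex10 libraries, against 77.3 and 82.1 FPKM in the shLuci libraries. The FPKM tables hold no read totals. A rough estimate from the value of a single read put the depth of the 4 libraries between 83.4% and 100.0% of that of shLuci replicate 1, the deepest. In the test described below, 51.6% of all genes passed, 19.8% higher and 31.8% lower in shTex10, and the marker counts stand against these shares. Of 10 markers of ES cells, 7 were lower in shTex10 and 3 did not pass the test, with sums of 4137 to 4491 FPKM in shTex10 and 5007 to 5418 FPKM in shLuci. Dppa5a, the highest of the 10, did not pass, at 2467 and 2917 FPKM in shTex10 and 2432 and 2999 FPKM in shLuci. It takes so large a part of the sums that they show little of the fall of the 7. Of 8 trophectoderm markers, 6 were tested and all 6 were higher, with sums of 573 to 578 FPKM in shTex10 and 263 to 272 FPKM in shLuci. Krt8 and Krt18 made up most of these sums. Krt8 measured 294 and 284 FPKM in shTex10 and 132 and 132 FPKM in shLuci. Krt18 measured 234 and 239 FPKM in shTex10 and 107 and 118 FPKM in shLuci. Of 5 fibroblast markers tested 1 was higher, 1 was lower and 3 did not pass. The full list of 8 summed to 88.2 to 97.5 FPKM in shTex10 and 65.2 to 75.0 FPKM in shLuci. Acta2 was the highest of the 8, at 54.9 and 56.7 FPKM in shTex10 and 38.2 and 36.8 FPKM in shLuci. Dcn and Lum were below 0.2 FPKM in every library. The 1 primitive endoderm marker tested of 7 was higher, and the list summed to 5.97 to 6.29 FPKM in shTex10 and 3.29 to 3.89 FPKM in shLuci, and of 4 epiblast and primed markers tested of 5, 2 were lower and 2 did not pass, with sums of 62.9 to 64.3 FPKM in shTex10 and 83.6 to 84.0 FPKM in shLuci. The part of these markers in the results below was not tested. In bulk RNA, fewer cells that express a gene and less RNA per cell cannot be told apart.

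The pathway genes did not move in one direction. Nodal rose 2.58-fold and Smad3 1.42-fold in shTex10, whereas Lefty2, Lefty1, Tdgf1, Acvr2b, Smad7 and Gdf3 fell, Lefty2 the most, to 30.4% of its shLuci mean. Smad2 and Skil did not pass the test. All 10 genes had a mean FPKM of at least 1 and were tested on log2(FPKM + 1) with limma, and every adjusted p below is from that fit, corrected by Benjamini and Hochberg over the 11883 genes tested. At an adjusted p under 0.05, 8 of the 10 were called, against 51.6% of all genes tested. The 6 lower calls compare with 31.8% of all genes and the 2 higher calls with 19.8%. The groups did not overlap for any of the 10 genes, 4 of them higher and 6 lower in shTex10. The same held for 76.4% of all genes, 28.3% higher and 48.1% lower. The median log2 change of the 10 genes was -0.60, beside -0.14 for all genes. With such a large share of genes called, the number of calls sets the pathway little apart, and the sizes and opposite directions below carry more of the description. The series design names biological replicates without further detail, so the p-values rest on the spread between these libraries, which may be technical. Exact permutation of 2 and 2 libraries allows no p under 0.33 and was not used.

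**Figure D1:**
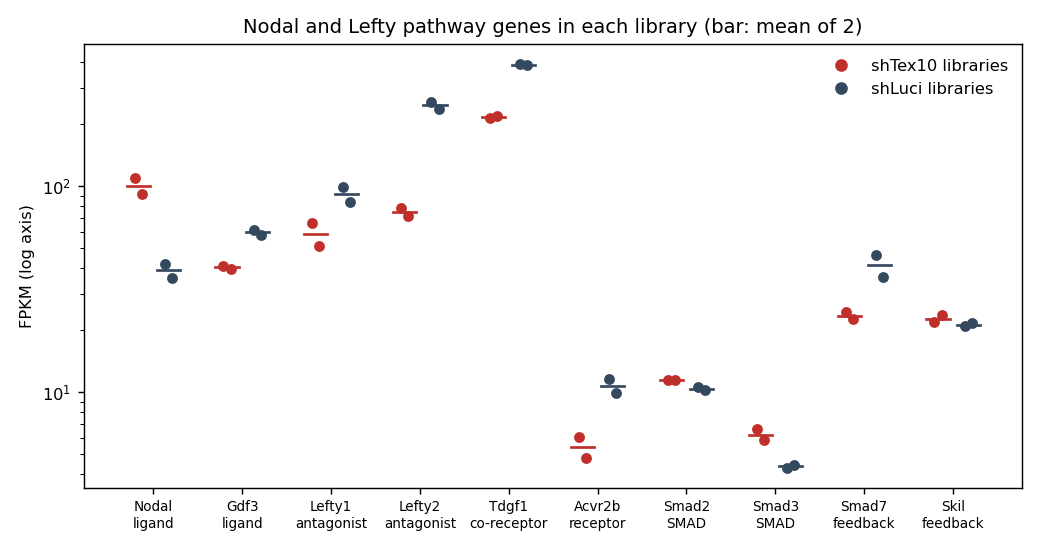
FPKM of the 10 Nodal and Lefty pathway genes on a log axis, with 1 point per library and a bar at the mean of 2 libraries, for shTex10 (red, left) and shLuci (dark, right). Nodal lies higher in both shTex10 libraries, at 92.3 and 109 FPKM, whereas Lefty2 and Tdgf1 lie lower in both.

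Among the ligands, Nodal measured 109 and 92.3 FPKM in shTex10, against 42.2 and 36.0 FPKM in shLuci. Both shTex10 libraries lay more than 2-fold above both shLuci libraries. Its mean was 101 ± 12.1 FPKM in shTex10 and 39.1 ± 4.38 FPKM in shLuci (SD, n = 2 each). The log2 change was 1.34 (SE 0.13, adjusted p = 0.000897). Within each library's ranking of 22739 genes by FPKM, Nodal stood at places 692 and 855 in shTex10 and at places 2322 and 2717 in shLuci. Nodal (XLOC_001929) spans mm9 chromosome 10, 60879228 to 60888089, as the deposited tables give the locus.

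Gdf3, the gene of a related ligand that also signals through the Cripto co-receptor, went the other way. Its locus (XLOC_023026) is mm9 chromosome 6, 122555420 to 122560089. It measured 41.2 and 39.6 FPKM in shTex10, against 61.4 and 58.4 FPKM in shLuci, with no overlap. Its log2 change was -0.56 (SE 0.09, adjusted p = 0.00414). Relative to the median of all genes the change was -0.42. Per length, transcripts of Gdf3 were fewer than those of Nodal in shTex10, with ratios of 0.377 and 0.429, and outnumbered them in shLuci, with ratios of 1.46 and 1.62.

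The antagonists were both lower, and the log2 change of Lefty2 was the larger, a difference described by their ratio and not tested. Lefty2 measured 78.7 and 71.8 FPKM in shTex10, against 257 and 238 FPKM in shLuci. Even the higher shTex10 library lay far below the lower shLuci library. The means were 75.2 ± 4.88 FPKM in shTex10 and 248 ± 13.5 FPKM in shLuci (SD, n = 2 each). Lefty2 changed by -1.71 on the log2 scale (SE 0.10, adjusted p = 0.000223). Lefty1 measured 66.7 and 51.4 FPKM in shTex10, against 99.1 and 84.4 FPKM in shLuci. The groups did not overlap, but the replicates of Lefty1 were, relative to their mean, wider apart than those of Lefty2. Its log2 change was -0.63 (SE 0.15, adjusted p = 0.0173). The call of Lefty1 was lost with quantile-normalized values (adjusted p = 0.0904), when sums over named genes (0.101) or over all rows (0.549) were made equal, and without the filter on low values (0.135). Over all 17 alternatives its adjusted p ran between 1.04e-05 and 0.549.

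Lefty1 (XLOC_000604, mm9 chromosome 1, 182865169 to 182868532) and Lefty2 (XLOC_000602, 182823249 to 182829233) are neighbouring paralogs, and reads that match both cannot be assigned with certainty. In the longest coding transcripts of GENCODE release M21, 73 windows of 100 bases were identical between them, which is 4.80% of the windows of Lefty1 and 3.07% of those of Lefty2. Their sum depends little on how such reads were divided. It was 145 and 123 FPKM in shTex10, against 356 and 323 FPKM in shLuci. The ratio of Lefty2 to Lefty1 was 1.18 and 1.40 in shTex10, against 2.60 and 2.82 in shLuci.

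Ratios within a library do not depend on how that library was scaled. Lefty1 and Lefty2 summed to 1.33 times the FPKM of Nodal in both shTex10 libraries, against 8.44 and 8.96 times in shLuci. Antagonist transcripts per Nodal transcript were thus 6.53-fold fewer in shTex10. The ratio of Tdgf1 to Nodal was 1.96 and 2.38 in shTex10, against 9.30 and 10.8 in shLuci. The groups of all 6 ratios formed were apart. For the ratios to Nodal this follows from the single genes, since Nodal was higher and the other genes lower in both shTex10 libraries. These ratios therefore describe the sizes and add no support to the calls. No test was applied to the ratios, since 2 against 2 libraries cannot pass an exact test.

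**Figure D2:**
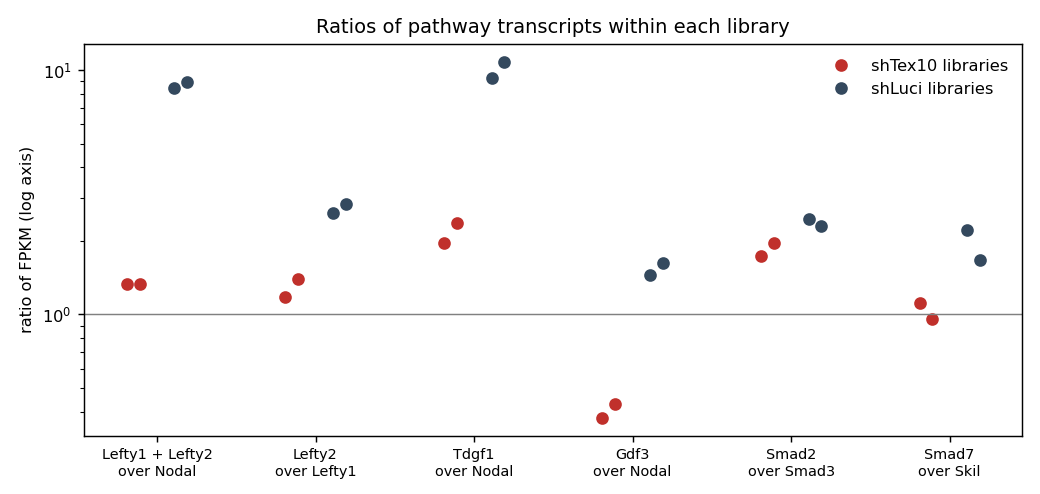
Ratios of FPKM between pathway genes within each library on a log axis, with 1 point per library for shTex10 (red, left) and shLuci (dark, right) and a line at 1. The ratio of summed Lefty1 and Lefty2 to Nodal is 1.33 in both shTex10 libraries and 8.44 and 8.96 in the shLuci libraries.

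Tdgf1, the gene of Cripto, was the highest of the 10 genes in both groups. Its locus (XLOC_028979) is mm9 chromosome 9, 110842111 to 110848662. It measured 214 and 219 FPKM in shTex10, against 392 and 389 FPKM in shLuci. Replicates differed by under 6 FPKM in both groups, far less than the groups. The means were 217 ± 3.79 FPKM in shTex10 and 391 ± 2.51 FPKM in shLuci (SD, n = 2 each), and the log2 change was -0.85 (SE 0.08, adjusted p = 0.000974). Of its transcript's windows of 100 bases, 4.69% also occur in the pseudogene transcript Tdgf1-ps1.

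Promoters of the pathway genes were taken from RefSeq on GRCm38.p6, from 250 bases before to 50 bases after the annotated start, for 4 of the 10 genes (Nodal, Tdgf1, Acvr2b and Smad3). Those of Nodal and Tdgf1 are printed, as the gene that rose most and the most abundant gene that fell. Capitals mark motifs found on either strand.
Tdgf1, GRCm38.p6, chr9:110946109-110946408, minus strand: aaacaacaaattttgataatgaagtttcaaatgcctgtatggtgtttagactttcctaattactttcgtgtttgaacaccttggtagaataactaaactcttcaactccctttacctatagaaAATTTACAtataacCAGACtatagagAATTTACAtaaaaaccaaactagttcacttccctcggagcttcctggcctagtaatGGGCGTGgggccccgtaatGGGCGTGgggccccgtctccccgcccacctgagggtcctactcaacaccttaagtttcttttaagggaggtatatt
Nodal, GRCm38.p6, chr10:61417722-61418021, plus strand: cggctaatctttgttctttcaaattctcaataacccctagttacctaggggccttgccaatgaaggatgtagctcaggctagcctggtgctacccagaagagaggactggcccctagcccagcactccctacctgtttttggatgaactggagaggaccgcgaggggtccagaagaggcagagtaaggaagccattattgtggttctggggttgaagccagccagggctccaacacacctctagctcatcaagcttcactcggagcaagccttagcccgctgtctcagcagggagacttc
In the Tdgf1 promoter AATNNACA, a core of the FOXH1 site, occurred at -127 to -120 and again at -101 to -94 from the start. The SMAD box CAGAC lay between them, at -113 to -109. GGGCGTG, which KLF and SP factors can bind, occurred at -45 to -39 and at -26 to -20, and these letters were chosen after the sequences had been read. Of 32851 promoters of this length, 12.2% held AATNNACA, 49.6% CAGAC and 8.44% GGGCGTG. The Nodal window held none of these, nor GTCTAGAC (0.213% of promoters), ATGCAAAT of OCT4 (1.74%), ACAATG of SOX2 (12.6%) or GGGTGTG of KLF4 (7.95%), which the Tdgf1 window lacked as well. In the other two windows the only match was CAGAC, once in Acvr2b. A match is a description of the letters and not evidence of binding. Sites outside these windows were not searched, so a window without a match does not show that a gene lacks them. The promoters of Lefty1, Lefty2 and Smad7 were not among the 4 taken.

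Acvr2b encodes a type II activin receptor that binds Nodal. Its locus (XLOC_028366) is mm9 chromosome 9, 119311453 to 119351253. It measured 6.05 and 4.80 FPKM in shTex10, against 11.6 and 9.89 FPKM in shLuci. Both shTex10 libraries were well below both shLuci libraries. The log2 change was -0.87 (SE 0.14, adjusted p = 0.00414), and the level fell to 50.5% of the shLuci mean.

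Both transducer genes differed by less than 1.5-fold between the groups. Smad3 (XLOC_028761, mm9 chromosome 9, 63494573 to 63605801) measured 6.63 and 5.86 FPKM in shTex10, against 4.32 and 4.46 FPKM in shLuci. The groups were apart, with a log2 change of 0.43 (SE 0.10, adjusted p = 0.0155). Without shTex10 replicate 1 its log2 change was 0.35 and the call was lost (adjusted p = 0.0677, with a range between 0.00285 and 0.701 over all alternatives). Smad2 (XLOC_013035, mm9 chromosome 18, 76401354 to 76471496) measured 11.5 and 11.4 FPKM in shTex10, against 10.6 and 10.3 FPKM in shLuci. Its log2 change of 0.13 (SE 0.09) did not pass the test (adjusted p = 0.268).

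The feedback genes parted. Smad7 (XLOC_013032, mm9 chromosome 18, 75526993 to 75555591), whose product blocks receptor signalling, measured 24.5 and 22.7 FPKM in shTex10, against 46.6 and 36.3 FPKM in shLuci. The shLuci libraries differed between themselves by about 10 FPKM, less than the gap between the groups. The log2 change was -0.78 (SE 0.14, adjusted p = 0.00621). Skil (XLOC_016886, mm9 chromosome 3, 30990795 to 31021845), the gene of the SMAD corepressor SnoN, measured 22.0 and 23.7 FPKM in shTex10, against 20.9 and 21.7 FPKM in shLuci. Its values lay close together, and its log2 change of 0.10 (SE 0.09) did not pass the test (adjusted p = 0.409). The ratio of Smad7 to Skil was 1.12 and 0.959 in shTex10, against 2.22 and 1.68 in shLuci.

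The order of the 10 genes by FPKM changed with these shifts. In shTex10 it ran Tdgf1, Nodal, Lefty2, Lefty1, Gdf3, Smad7, Skil, Smad2, Smad3 and Acvr2b, and in shLuci Tdgf1, Lefty2, Lefty1, Gdf3, Smad7, Nodal, Skil, Acvr2b, Smad2 and Smad3. In shTex10 the ranges of the neighbours Smad7 and Skil overlapped, as did those of Smad3 and Acvr2b. In shLuci those of Smad7 and Nodal and of Acvr2b and Smad2 overlapped. Nodal thus stood in the second place of the order in shTex10 and in the sixth in shLuci.

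**Figure D3:**
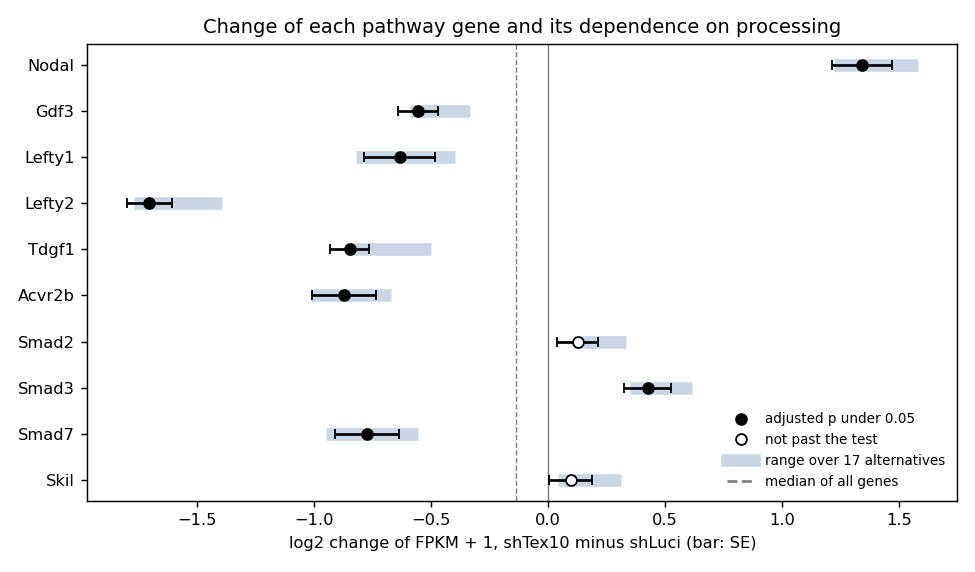
Log2 change of FPKM + 1 (shTex10 minus shLuci) of the 10 genes with its SE, filled where the adjusted p is under 0.05, over the range of 17 alternative settings (blue bands); the dashed line is the median of all genes at -0.14. Nodal (1.34) and Lefty2 (-1.71) lie farthest from 0, and no band crosses 0.

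Scaling bore on the calls of the smaller changes. Over all genes the median log2 change was -0.14 on the deposited scale and 0.06 once the sums over named genes had been made equal. Of the genes called, 38.3% were higher in shTex10 on the deposited scale, 62.9% with equal sums over named genes and 73.4% with equal sums over all rows. With equal sums over named genes, Smad2 (log2 change 0.34) and Skil (0.31) passed the test as higher. None of the 10 genes changed sign under any of the 17 alternatives, and Nodal and Lefty2 kept their calls in each. Equal sums over all rows, of which unnamed rows took between 56.3% and 71.6% of the FPKM in a library, left 2 of the 8 calls, those of Nodal and Lefty2. Both ends of that range were shLuci replicates. Under this scaling the log2 changes of the 10 genes hardly moved, but their SE grew. For Tdgf1 the log2 change was -0.84 in place of -0.85, and the SE 0.43 in place of 0.08.

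Other genes of the activin, Nodal and TGF-beta pathways moved in both directions. Of 35 listed, 26 were tested, of which 4 rose, 8 fell and 14 did not pass, with a median log2 change of -0.12 beside -0.14 for all genes. The 12 calls among 26 genes were near the background of 51.6%. Inhbb, the gene of the activin B subunit, fell to 0.742 and 0.765 FPKM in shTex10, against 6.22 and 5.29 FPKM in shLuci (log2 change -1.94, SE 0.10, adjusted p = 0.000212). It passed the filter on account of its shLuci values alone, so its test is conditional on a high level in that group. Gdf1, the gene of a partner of Nodal, measured 1.10 and 0.566 FPKM in shTex10, against 2.82 and 1.83 FPKM in shLuci, and its call is uncertain because Gdf1 and Cers1 share a bicistronic transcript. It too passed the filter through its shLuci values alone, and its call was lost without the filter (adjusted p = 0.144). Tgfb1 fell, at 2.57 and 1.95 FPKM in shTex10, against 3.75 and 3.22 FPKM in shLuci, while Tgfb2 did not pass, with a log2 change of 0.21. Inhba, another activin subunit gene, was below the filter and went the other way from Inhbb. It measured 1.33 and 1.20 FPKM in shTex10, against 0.578 and 0.763 FPKM in shLuci.

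Of the proteases that cleave the Nodal precursor, Pcsk6 (PACE4) fell and Furin did not pass. Pcsk6 measured 9.05 and 8.33 FPKM in shTex10, against 15.0 and 13.6 FPKM in shLuci, a log2 change of -0.66. Among receptors, Acvr1b (ALK4), the type I receptor for Nodal, was lower, with a log2 change of -0.40, and Tgfbr3 (betaglycan) was higher, at 1.75 and 1.76 FPKM in shTex10 and 0.591 and 0.668 FPKM in shLuci. Tgfbr3 passed the filter on account of its shTex10 values alone. The TGF-beta receptor genes Tgfbr1 (log2 change 0.22) and Tgfbr2 (0.23) did not pass. Fst, the gene of the activin-binding protein follistatin, rose to 2.94 and 3.42 FPKM in shTex10, against 1.90 and 1.76 FPKM in shLuci, and the Nodal antagonist gene Dand5 did not pass, at a log2 change of -0.02. Cer1, another antagonist gene, was under 0.1 FPKM in all libraries.

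Among SMAD partners, Zfyve9 (SARA), which presents SMAD2 and SMAD3 to the receptor, fell to 5.43 and 6.30 FPKM in shTex10, against 9.87 and 10.6 FPKM in shLuci. Smad4 fell, with a log2 change of -0.33, and Zfyve16 (endofin) rose, with a log2 change of 0.31. Foxh1, the DNA-binding partner of SMAD2 and SMAD3, measured 31.5 and 21.8 FPKM in shTex10, against 38.3 and 31.4 FPKM in shLuci. These ranges overlap, and its log2 change of -0.39 did not pass (adjusted p = 0.139). It passed without shTex10 replicate 1 (adjusted p = 0.000589) and without shLuci replicate 2 (0.0157). Of 8 intracellular inhibitors, Tgif2, a corepressor gene, fell to 7.82 and 7.26 FPKM in shTex10, against 13.6 and 11.4 FPKM in shLuci. Smurf1, a ubiquitin ligase gene, rose, with a log2 change of 0.32, and 6 did not pass, among them Ski (-0.22) and Pmepa1 (-0.22).

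Some of these calls rest on the scale or on the filter. With equal sums over all rows, those of Inhbb and Gdf1 were the 2 that remained of the 12. Without the filter Gdf1, Tgfb1, Acvr1b, Fst, Smad4, Zfyve16, Tgif2 and Smurf1 lost theirs. With equal sums over named genes, Smad4 (adjusted p = 0.402), Tgfb1 (0.144) and Acvr1b (0.196) lost their calls. Single libraries also decided several: Smad4 was lost without shLuci replicate 2 or shTex10 replicate 1, Tgfb1 and Acvr1b without shLuci replicate 1 or shTex10 replicate 2, Smurf1 without shLuci replicate 1 or 2 or shTex10 replicate 1, and Zfyve16 without any 1 of the 4 libraries.

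**Figure D4:**
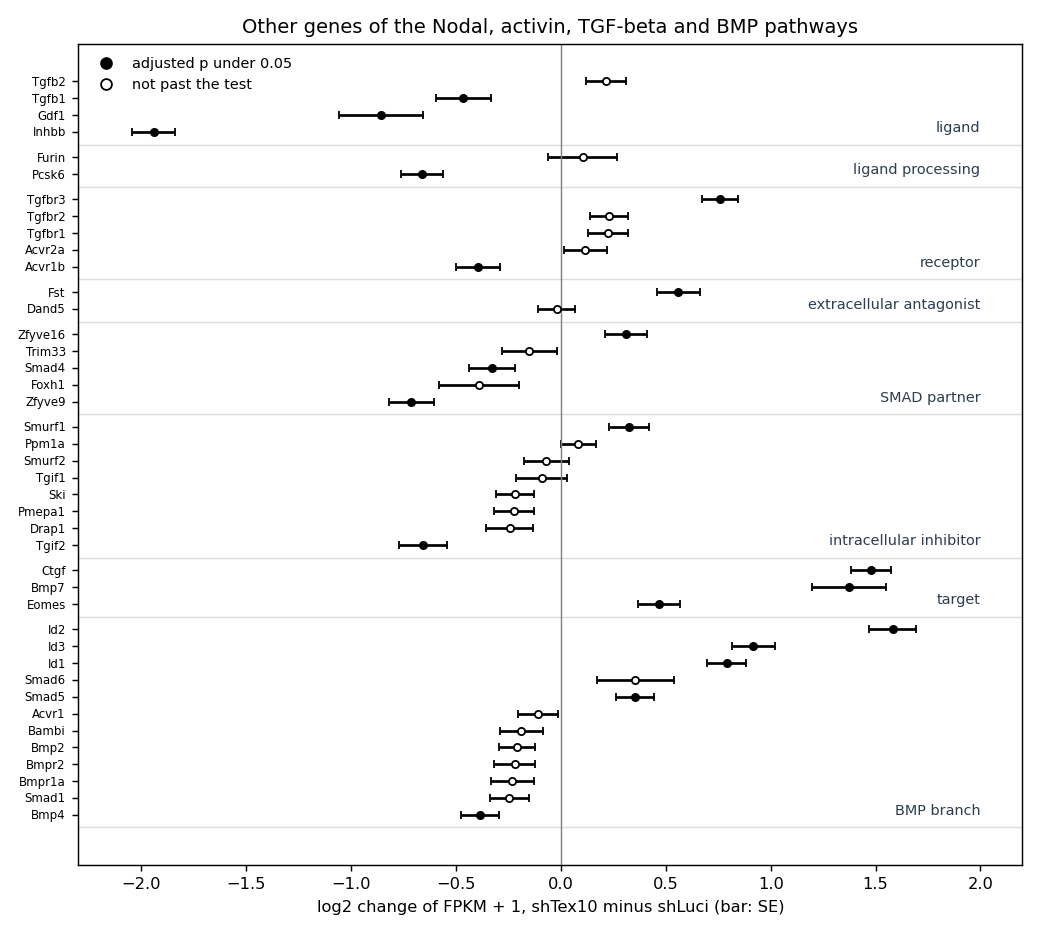
Log2 change of FPKM + 1 (shTex10 minus shLuci) with its SE for tested genes of the listed pathways that are reported here, grouped by role, filled where the adjusted p is under 0.05. Inhbb at -1.94 lies lowest, and Id2 and Ctgf, at 1.58 and 1.48, highest.

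Of 14 further genes known as targets of SMAD2 and SMAD3 in embryos or other cells, 13 had a row, 5 were tested, 4 rose and 1 did not pass, where 19.8% of all genes tested rose. Ctgf, the gene of a matricellular growth factor, rose to 146 and 140 FPKM in shTex10, against 53.4 and 47.9 FPKM in shLuci (log2 change 1.48, SE 0.10). Ctgf is also a target of other pathways. Bmp7 and Eomes were higher as well, with log2 changes of 1.37 and 0.47. Both calls ended without the filter (adjusted p = 0.0547 for Bmp7 and 0.0689 for Eomes), and that of Eomes also with equal sums over all rows (0.580). The mesendoderm genes Mixl1, Gsc, Foxa2, Sox17, Lhx1 and Mesp1 were each under 0.5 FPKM in every library, and T (Brachyury) was between 0.861 and 1.09 FPKM. Of the target genes below the filter, Mixl1 and Fgf8 were lower in both shTex10 libraries than in either shLuci library. Sox17 and Lhx1 were higher in both, and T, Gsc, Foxa2 and Mesp1 overlapped. Among genes that passed the filter, 76.4% did not overlap, 28.3% higher and 48.1% lower. Sox17 measured 0.215 and 0.281 FPKM in shTex10, against 0.0952 and 0.157 FPKM in shLuci. Lhx1 measured 0.135 and 0.116 FPKM in shTex10, against 0.0714 and 0.0679 FPKM in shLuci. Mixl1 measured 0.0310 and 0.0848 FPKM in shTex10, against 0.364 and 0.235 FPKM in shLuci, and Fgf8 0.0590 and 0.280 FPKM in shTex10, against 0.836 and 0.652 FPKM in shLuci. Eomes is also among the trophectoderm markers above.

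In the BMP branch, which signals through SMAD1 and SMAD5, 13 genes were listed and 12 tested, of which 4 rose, 1 fell and 7 did not pass. The 5 calls among 12 genes compare with 51.6% of all genes, and the 4 that rose with 19.8%. The median log2 change of the 12 was -0.15, beside -0.14 for all genes. The 3 Id genes on the list, Id1, Id2 and Id3, are classical targets of BMP that block differentiation factors. All 3 were higher, and the transducer gene Smad5 was the other that rose. Smad6 (log2 change 0.35) and Bambi (-0.19) were among the 7 that did not pass. Id2 rose to 39.4 and 44.7 FPKM in shTex10, against 12.5 and 14.3 FPKM in shLuci (log2 change 1.58, SE 0.11). Id1 rose to 75.6 and 70.2 FPKM in shTex10, against 43.2 and 40.2 FPKM in shLuci. Id3 rose to 122 and 108 FPKM in shTex10, against 62.5 and 58.3 FPKM in shLuci. The ligand gene Bmp4 fell to 7.94 and 7.44 FPKM in shTex10, against 10.3 and 10.4 FPKM in shLuci, a call lost with equal sums over named genes (adjusted p = 0.169) and without either shLuci library or shTex10 replicate 2. With equal sums over all rows Id1 (adjusted p = 0.378) and Id3 (0.245) lost their calls as well.

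Genes beside the 10 loci did not all move with them. Within 100 kb of the 10 genes lay 39 other named genes, of which 27 were tested, 8 rose, 11 fell and 8 did not pass, where 19.8% of all genes tested rose and 31.8% fell. Of 23 unnamed rows in these windows 5 were tested and 3 fell. Of all unnamed rows tested 49.2% were called, 13.2% lower and 36% higher. Nodal rose between neighbours that fell. Eif4ebp2, an inhibitor of translation initiation whose locus begins 2.71 kb away, fell to 44.3 and 42.6 FPKM in shTex10, against 87.3 and 78.9 FPKM in shLuci. Pald1, 32.9 kb to the other side, fell to 23.7 and 18.1 FPKM in shTex10, against 48.2 and 38.1 FPKM in shLuci. No source used here states whether strand was counted, so reads of overlapping genes on opposite strands cannot be told apart.

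At the Lefty locus, on the side of Lefty1 away from Lefty2, Tmem63a, 4.00 kb away, rose to 9.71 and 7.40 FPKM in shTex10, against 4.23 and 3.37 FPKM in shLuci. On the far side of Lefty2, Sde2 did not pass, with a log2 change of -0.12. The neighbours of Gdf3 that passed were 2 that rose and 1, Nanog, that fell. Apobec1, 2.09 kb away, rose to 8.26 and 8.87 FPKM in shTex10, against 2.08 and 2.65 FPKM in shLuci. Dppa3, a marker of naive cells and germ cells 16.4 kb away, rose to 32.3 and 35.2 FPKM in shTex10, against 13.6 and 13.3 FPKM in shLuci. Nanog, the gene of a pluripotency factor, lies 97.3 kb away, at the edge of the window, and had a log2 change of -0.66 (adjusted p = 0.00286). Without the filter Pald1 (adjusted p = 0.0805) and Tmem63a (0.0694) lost their calls, and with equal sums over all rows Eif4ebp2 (0.256), Pald1 (0.174), Tmem63a (0.134) and Dppa3 (0.0501) did.

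**Figure D5:**
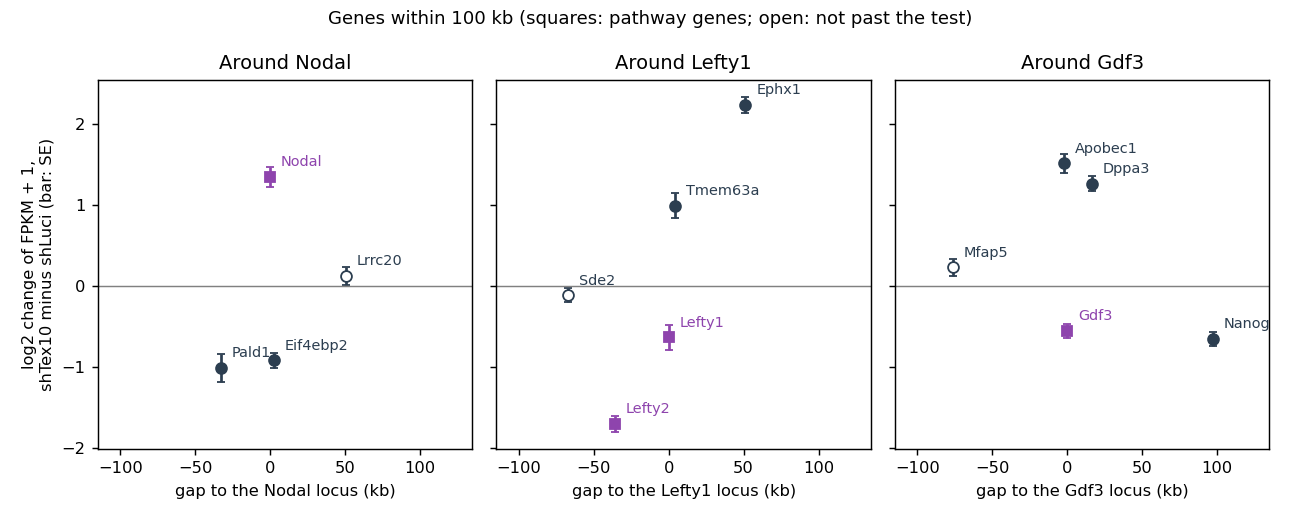
Log2 change of FPKM + 1 (shTex10 minus shLuci) with its SE for genes reported here against their gap in kb to Nodal, Lefty1 and Gdf3, with pathway genes as squares and genes not past the test open. Nodal stands alone above 1 at its locus, while Lefty1 and Lefty2 lie below 0 and Tmem63a and Ephx1 above it.

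Beside Tdgf1, Lrrc2 fell with it, to 7.54 and 8.72 FPKM in shTex10, against 19.7 and 23.8 FPKM in shLuci, and the tables give Lrrc2 the same locus as Rtp3. Als2cl was higher by 0.38 on the log2 scale, at the edge of the test (adjusted p = 0.0498, between 0.00331 and 0.701 over the alternatives), and its call was lost without shLuci replicate 2 or shTex10 replicate 1. Around Acvr2b, Xylb fell, with a log2 change of -0.72, and Exog, the nearest, did not pass, at -0.01. Aagab beside Smad3 (-0.53) and Prkci near Skil (-0.72) were lower. Zbtb7c, 93.1 kb from Smad2 and so near the edge of the window, was higher (1.13). It has the same locus as another named gene, which was below the filter. Gm10532, 35.3 kb from Smad7, rose to 6.34 and 5.42 FPKM in shTex10, against 0.667 and 0.536 FPKM in shLuci. It passed the filter on account of its shTex10 values alone and has the same locus as Ctif, which did not pass.

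The genes closest in pattern were sought over the 4 libraries, by the Euclidean distance between log2(FPKM + 1) values centred on each gene's mean. For Nodal these were Wnt3, Atp9a and Tbx4, at distances of 0.0342, 0.0407 and 0.0430. Wnt3 measured 4.21 and 3.28 FPKM in shTex10, against 0.984 and 0.732 FPKM in shLuci. Coro2b, Hopx and Ccne1 lay closest to Lefty2, at distances of 0.0412, 0.0544 and 0.0651. Of these, Ccne1 (cyclin E1) was abundant, at 26.5 and 25.1 FPKM in shTex10, against 87.5 and 85.3 FPKM in shLuci. Closest to Lefty1 were Tecpr1, Rhebl1 and Nfkbib, at distances of 0.0338, 0.0462 and 0.0581. Wnt3 and Tbx4 passed the filter on account of their shTex10 values alone, and Coro2b and Hopx on account of their shLuci values alone. The added 1 shrinks the changes of such low genes. In mean FPKM, Wnt3 rose 4.37-fold and Tbx4 4.47-fold, against 2.58-fold for Nodal. Coro2b fell 6.37-fold and Hopx 6.02-fold, against 3.29-fold for Lefty2. These distances rest on 4 libraries in 2 groups and are a description.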

How the data were processed

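Gene expression was measured by RNA sequencing in 2 shTex10 and 2 shLuci libraries of CCE cells, grouped by the hairpin in the labels. The deposited values are FPKM, given by the authors for each library in a table of its own. Per the submitters' processing notes, mm9 was the build, and Cufflinks 2.1.1, TopHat2 2.0.10 and Bowtie2 2.1.0 were used. The annotation and the strand setting are not stated in any source used here.

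Rows without a gene name (7329 of 30640) were left out, and rows that shared a name were summed, which gave 22739 genes. The 11883 genes whose FPKM averaged 1 or more in the 4 libraries were kept, and log2(FPKM + 1) was fitted by limma 3.58.1 under R 4.3.3 (eBayes with trend, no replicate block, Benjamini-Hochberg adjustment over all genes tested, threshold 0.05). A log2 change is shTex10 minus shLuci on that scale and understates the change of low genes. Relative depth was estimated from the smallest value above 0 at each of 2918 locus lengths of unnamed rows, and no counting intervals can be given. The fit was tested on simulated data.

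The 10 genes and the gene lists were chosen with earlier results of these data known, and lists are described by counts and medians with no test. Named were the 10 genes, Tex10, up to 4 genes of smallest p per role or list, up to 2 nearest tested neighbours within 100 kb and the 3 genes of closest pattern for Nodal, Lefty1 and Lefty2. Genes named besides these, chosen after their values were seen, were Cer1, T, Smad5, Smad6, Bambi, Inhba, Dppa5a, Krt8, Krt18, Acta2, Dcn, Lum, Ephx1, Nanog, Fgf8, Rtp3 and the mesendoderm genes. A few genes that the rule names are not reported here, though counts include them. Alternatives were other pseudocounts (0.1 and 0.5), filters (none and a mean of at least 5), scalings, eBayes options, a replicate block, the highest row per name, leaving out each library and, chosen after seeing the data, testing unnamed rows as features.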

Additional observations from a re-analysis of the deposited data

How the results depend on the processing

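Depth limits the values near 1 FPKM, where single reads weigh most, and 2 libraries per group leave errors that borrow strength from all genes. Nodal, Lefty2 and the direction of all 10 genes held under all 17 alternatives. With equal sums over all rows limma called 892 genes (655 higher, 237 lower) and 2 of the 10 pathway genes (1 higher, 1 lower); Gdf3 (log2 change -0.55), Lefty1 (-0.63), Tdgf1 (-0.84), Acvr2b (-0.88), Smad3 (0.43) and Smad7 (-0.77) lost their calls. It called 6 of the other listed pathway genes, where 21 were called as deposited (2 against 12 in the activin, Nodal and TGF-beta list and 1 against 5 in the BMP list). Without a filter 2378 genes were lower in place of 3779, and 4 of the 10 were called (1 higher, 3 lower), with Lefty1 (-0.63), Acvr2b (-0.87), Smad3 (0.43) and Smad7 (-0.78) lost; listed genes called were 13, of which 4 in the activin, Nodal and TGF-beta list. A filter at a mean of 5 FPKM tested fewer genes and called 1292 genes higher in place of 2350, and 13 listed genes, 6 in the activin, Nodal and TGF-beta list and 2 targets. Equal sums over named genes called 1906 genes lower and 4 of the 10 higher, with Smad2 (0.34) and Skil (0.31) gained and Lefty1 (-0.41) lost. Quantile normalization lost Lefty1 (-0.40). Without single libraries, a fit that assumes the lone library of a group to vary like the others, between 1 and 2 of the 10 were called higher, Smad3 ran from 0.35 to 0.50, and 3 to 4 genes of the BMP list were called, 3 without shLuci replicate 2. The causes of these losses were not tested. Of 33 named genes outside the 10 that were called, between 0 and 23 lost their call under an alternative, most under rescaling over all rows, and none changed sign.

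Replicates of the same number share only that number. With 2 pairs, the deviations of same-numbered libraries correlated at 0.33 across genes, and the labels name no shared culture or day. With the replicate number as a block, 5709 genes were lower, and 35 listed genes were called (21 in the activin, Nodal and TGF-beta list and 9 in the BMP list); Foxh1, Ski, Pmepa1, Tgfb2, Tgfbr1, Tgfbr2 and Sde2 gained a call, with adjusted p between 0.00272 and 0.0437, and the calls of the 10 genes did not change, with a log2 change of 1.34 for Nodal and -1.71 for Lefty2.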

Other observations

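Unnamed transcribed rows also lie beside the pathway genes. Within 100 kb of the 10 genes there were 23, of which 5 had a mean FPKM of at least 1 and were tested beside the named genes, a fit chosen after the data were seen. Of these 3 fell, 0 rose and 2 did not pass, where 49.2% of 1770 unnamed rows tested were called, 13.2% lower and 36.0% higher. Immediately before the Smad7 locus, 0.196 kb away, an unnamed row (XLOC_013289) fell to 2.31 and 2.35 FPKM in shTex10, against 6.30 and 6.54 FPKM in shLuci (log2 change -1.16, SE 0.09, limma with Benjamini-Hochberg adjusted p = 0.00149). The log2 change of Smad7 itself was -0.78. A second unnamed row has the same locus and was below the filter.

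Between Lefty2 and Lefty1, an unnamed row 10.1 kb from Lefty1 (XLOC_001260, mm9 chromosome 1, 182851116 to 182855074) fell to 0.541 and 0.719 FPKM in shTex10, against 1.39 and 2.34 FPKM in shLuci (log2 change -0.80, SE 0.19, limma with Benjamini-Hochberg adjusted p = 0.0245). It passed the filter on account of its shLuci values alone, so this call, 1 of the 3 above, is conditional on a high level in that group. The next 3 unnamed rows toward Lefty1, between 9.63 and 5.17 kb from it, were below the filter. Their shTex10 values were 0.192 and 0.349, 0.126 and 0.157, and 0.110 and 0.0748 FPKM, against 1.12 and 2.05, 0.540 and 0.476, and 0.573 and 0.341 FPKM in shLuci. In each of the 3 both shTex10 libraries were lower than both shLuci libraries, and the row nearest Lefty1, 0.952 kb away, overlapped between the groups. The share of all unnamed rows whose groups did not overlap was not computed. On the other side of Lefty2, 4.81 kb from it, a long unnamed row (XLOC_001259) fell to 3.45 and 3.94 FPKM in shTex10, against 5.38 and 5.51 FPKM in shLuci. Near other members, unnamed rows below the filter lay apart in both directions. Those higher in both shTex10 libraries were XLOC_013458, XLOC_013460 and XLOC_013461 near Smad7 and XLOC_013465 near Smad2. Those lower were XLOC_023458 near Gdf3, XLOC_013462 near Smad7 and XLOC_029249 near Tdgf1.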
